A study of Mus musculus with 2 samples.

Results

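A set of 10 transcription factor genes known to act on Il10, the gene of the anti-inflammatory cytokine interleukin 10, was followed in sorted cells labelled ILCreg, for regulatory innate lymphoid cell. They are Maf, Prdm1, Bhlhe40, Nfil3, Creb1, Crem, Nfatc1, Nfatc2, Nfatc3 and Hif1a. They were chosen by name, and a gene was read where a feature of the array carried its symbol and no other. This gave 8 of the 10 genes, each with 1 feature, out of 28280 named genes in all. Crem and Nfatc1 were not analysed here.

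The series holds 1 group of 2 whole-transcript arrays, replicate 2 and replicate 1. Small intestines of IL-10-GFP knockin mice, C57BL/6 animals aged 8 weeks with green fluorescent protein placed at the Il10 gene, were the source of both arrays. The labels state a purity above 95% and give no gates of the sort. No other cell population was analysed here, so no difference between cell types or conditions could be tested and no p-value is given. Nothing in the labels says whether the 2 arrays came from separate mice or sorts, so their spread may be technical.

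Il10 is switched on by different sets of factors in T cells, B cells, macrophages and innate lymphoid cells. Some of these factors set which cells can make interleukin 10, as c-MAF and Blimp-1 do in T cells. Others carry a signal to the gene: CREB answers cyclic AMP, NFAT proteins answer calcium through the phosphatase calcineurin, and HIF-1 answers low oxygen. CREB, NFAT and HIF proteins are controlled largely after transcription, by phosphorylation, by movement into the nucleus and by protein breakdown, so the amount of their transcript is not a measure of their activity.

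Values are the authors' log2 signal. A gene was called above the threshold when its signal on each array exceeded the 95th percentile of 1678 olfactory, vomeronasal and taste receptor genes, which serve as the reference because lymphoid cells should lack them. The threshold was 6.19 on the replicate 2 array and 6.74 on the replicate 1 array. Of the reference genes themselves, 41 (2.44%) met it on both arrays. Across named genes, which are no independent replicates, Pearson's r between the arrays was 0.986 (Spearman's rho 0.969). Because probes bind with unequal affinity, signals do not order different genes by transcript amount.

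The arrays hold signal of several cell types. Of 9 measured innate lymphoid and lymphocyte markers, 4 lay above the threshold, namely Ptprc, Id2, Il7r and Kit, and Thy1, Tbx21, Klrb1c, Ncr1 and Zbtb16 did not. Of 7 T cell markers 6 passed, including Cd3e, Cd3d and Cd3g, as did 8 of 11 B and plasma cell markers, 9 of 10 macrophage and monocyte markers, 16 of 18 intestinal epithelial markers and 10 of 10 stromal and smooth muscle markers. Fewer passed among dendritic cell (4 of 11), endothelial (4 of 12) and mast cell and granulocyte markers (2 of 13). Of all named genes 31.7% passed, and of protein-coding genes outside the reference 38.9%. The dendritic cell (36.4%), endothelial (33.3%) and innate lymphoid (44.4%) shares lay near these, so their passes say little. The T cell (85.7%), B and plasma cell (72.7%), macrophage (90%), epithelial (88.9%) and stromal (100%) shares lay far above them. These calls cannot decide how pure the sort was, because signal above the threshold does not measure the share of cells. Where cells are mixed, more cells of a type and more RNA per cell cannot be told apart. The part that other cells have in the signal of each factor was not tested.

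Of the factors, 6, namely Maf, Prdm1, Bhlhe40, Creb1, Nfatc3 and Hif1a, gave signal above the threshold on both arrays. Nfatc2 did so on the replicate 2 array alone, and Nfil3 on neither. The 6 of 8 stand beside 31.7% called among all named genes, and 38.9% among 16411 protein-coding genes outside the reference. The factors were chosen with earlier results of these data known, so their higher share is no independent result. The median signal of the 8 factors was 8.44, against 5.43 over all named genes and 6.06 over the protein-coding genes. None of the factors lay near the highest value of the arrays, 19.86 on replicate 2 and 19.80 on replicate 1. On both arrays that value was of Dpt, a gene of the stromal and smooth muscle markers.

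**Figure D1:**
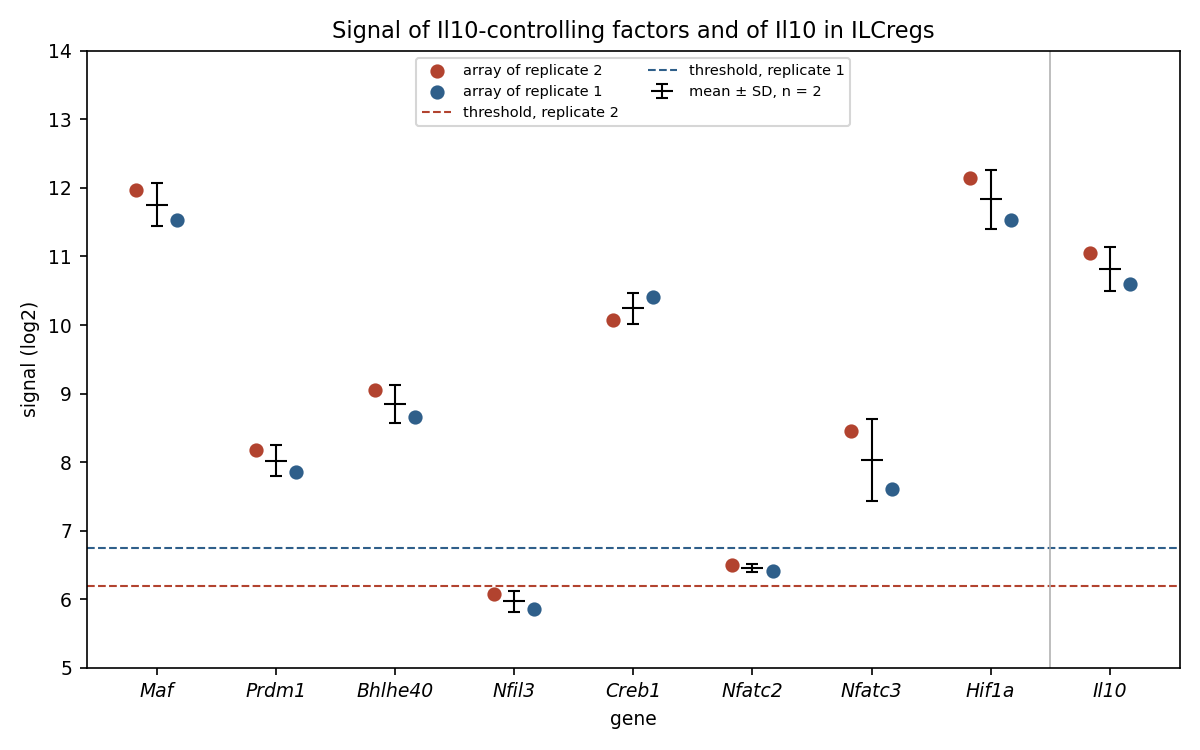
Log2 signal (vertical axis) of each of the 8 factors and of Il10 (horizontal axis) on the replicate 2 array (red) and of replicate 1 (blue), with mean ± SD (n = 2) in black and the threshold of each array as a dashed line. Maf and Hif1a lie more than 4 units above both thresholds, Nfatc2 lies between the thresholds and Nfil3 below both.

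Maf encodes c-MAF, a basic leucine zipper (bZIP) protein that binds the Il10 promoter and activates it in T cells and macrophages. Its signal was 11.97 on the replicate 2 array and 11.53 on the replicate 1 array, a mean of 11.75 ± 0.31 (SD, n = 2). These values lay 5.78 and 4.79 above the thresholds of their arrays. Both arrays were thus far over the level of the reference, by much more than they differed from each other. Macrophages also express Maf, and their markers Adgre1, Cd68 and C1qb stood at 9.86 ± 0.57, 9.86 ± 0.47 and 12.37 ± 0.25 on the same arrays.

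Among the relatives of Maf, 5 of 10 measured genes of the Maf, Bach and CNC family (50%) passed. The share of protein-coding genes outside the reference was 38.9%. Bach1, a heme-regulated repressor that pairs with small Maf proteins, stood at 11.15 ± 0.43. Mafk and Mafg, small Maf proteins that lack an activation domain, stood at 10.80 ± 0.11 and 7.05 ± 0.14. Nfe2l1 (10.33 ± 0.18) and Nfe2l2 (7.85 ± 0.01), whose proteins pair with small Maf proteins at stress response genes, completed the 5. The other large Maf genes that were measured, Mafa (5.07 ± 0.04) and the retinal factor gene Nrl (4.95 ± 0.15), lay below the threshold on both arrays, as did Nfe2l3 at 5.13 ± 0.14 and the small Maf gene Maff at 6.00 ± 0.07. Bach2, a repressor of effector differentiation in lymphocytes, reached 6.36 on replicate 2, above the threshold there, and 5.95 on replicate 1, below it. Maf was therefore the only large Maf gene of the 3 measured to pass.

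Prdm1 encodes Blimp-1, a zinc finger repressor that drives plasma cell differentiation and is needed for full Il10 expression in effector regulatory T cells. It had a signal of 8.18 on the replicate 2 array and 7.86 on the replicate 1 array, a mean of 8.02 ± 0.23 (SD, n = 2). It exceeded the thresholds by 1.99 and 1.12, a margin larger than the 0.32 between the arrays. Plasma cells also express Prdm1. The plasma cell genes Jchain (17.79 ± 0.45) and Xbp1 (13.50 ± 0.37) were above the threshold on the same arrays. Jchain and Xbp1 were the 2 highest of the B and plasma cell markers. Sdc1 of that list passed at 7.32 ± 0.27, and Tnfrsf17 was below both thresholds at 5.96 ± 0.59.

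Most of the other PRDM genes were at the level of the reference. Only Prdm4 (7.90 ± 0.32) and Prdm2 (6.89 ± 0.07) of 12 measured (16.7%, against 31.7% of all named genes) passed on both arrays. Prdm10 passed on replicate 2 alone, with 6.20 against 6.30 on replicate 1, where the threshold is higher. Prdm14 and Prdm13, whose proteins act in germ cells and neurons, were lowest, Prdm14 at 3.68 ± 0.19 and Prdm13 at 3.62 on replicate 2 and 3.63 on replicate 1. Of 11 measured genes that Blimp-1 is known to repress in B or T cells, 4 passed, close to the 31.7% of all named genes. They were Fos (12.21 ± 0.30), Myc (9.93 ± 0.02), Id3 (9.75 ± 0.42) and the chemokine receptor gene Ccr7 (9.12 ± 0.31). Pax5, the B cell identity factor gene, and Il2 were lowest, Pax5 at 4.86 on both arrays and Il2 at 4.23 ± 0.06. Bcl6, whose protein and Blimp-1 repress each other's genes, stood at 6.48 on replicate 2, above the threshold, and 6.74 on replicate 1, just short of it.

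Bhlhe40 encodes a basic helix-loop-helix repressor that lowers Il10 in mouse T helper cells and also acts in the circadian clock. Its signal was 9.05 on the replicate 2 array and 8.65 on the replicate 1 array, with a mean of 8.85 ± 0.28 (SD, n = 2). The values were 2.86 and 1.91 above the thresholds. A factor known as a repressor of Il10 was thus detected on the same arrays as Il10 itself. Its closest relative, Bhlhe41, gave 5.28 on replicate 2 and 5.58 on replicate 1, below the threshold on both.

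Nfil3 encodes a bZIP protein needed for innate lymphoid cell development in mice and linked to Il10 in T helper cells. It gave 6.08 on the replicate 2 array and 5.86 on the replicate 1 array, a mean of 5.97 ± 0.15 (SD, n = 2). It fell short of the thresholds, with margins of -0.11 and -0.88. On neither array could Nfil3 be told from the upper range of the reference, so its presence was not detectable here. The PAR bZIP genes Dbp (4.75 ± 0.18), Tef (5.76 ± 0.03) and Hlf (5.72 ± 0.02), whose proteins bind the same DNA sites as NFIL3, were below the threshold on both arrays as well.

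Of 15 measured genes of the clock and PAR bZIP list, 9 passed (60%, against 38.9% of protein-coding genes outside the reference). The core activator genes Arntl, encoding BMAL1, and Clock were highest at 9.95 ± 0.14 and 9.81 ± 0.80. The nuclear receptor genes Nr1d2 (8.40 ± 0.61) and Nr1d1 (7.28 ± 0.12), whose proteins repress Nfil3 and Arntl, passed, as did Rora (8.20 ± 0.41), Per1 (7.96 ± 0.03), Cry1 (7.52 ± 0.46), Npas2 (7.12 ± 0.02) and Cry2 (6.61 ± 0.19). Per3 was lowest at 4.66 ± 0.03. Per2 stood at 6.52 on replicate 2, above the threshold, and 6.54 on replicate 1, below it.

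Creb1 encodes CREB, a bZIP activator that protein kinase A and other kinases phosphorylate and that binds cyclic AMP response elements. Its signal was 10.08 on the replicate 2 array and 10.40 on the replicate 1 array, a mean of 10.24 ± 0.23 (SD, n = 2). It exceeded the thresholds by 3.89 and 3.66. Creb1 was the only one of the 8 factors with the lower value on the replicate 2 array.

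Of 19 measured CREB relatives, coactivators and protein kinase A subunits, 16 passed (84.2%, against 38.9% of protein-coding genes outside the reference). The coactivator genes Crebbp (11.12 ± 0.13), Ep300 (9.05 ± 0.19), Crtc2 (9.67 ± 0.12) and Crtc3 (6.93 ± 0.12) were above the threshold, and Crtc1 (5.40 ± 0.02) was below it. Atf1, whose protein pairs with CREB, stood at 7.52 ± 0.18, and the stress-induced Atf3 was highest of the list at 11.38 ± 0.15. The catalytic subunit genes Prkaca (7.31 ± 0.06) and Prkacb (8.71 ± 0.29) and the regulatory subunit gene Prkar1a (9.69 ± 0.19) passed. Prkar2b passed on replicate 2 alone, and Crebl2 on neither array, at 5.54 ± 0.10. The list thus held genes above the threshold at each step from kinase to coactivator.

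All 13 measured genes of a list of known cyclic AMP response genes were above the threshold on both arrays, with a median signal of 10.59. Among protein-coding genes outside the reference 38.9% were. Fosb, an AP-1 subunit gene, was highest at 17.36 ± 0.22, followed by the phosphatase gene Dusp1 at 15.52 ± 0.51. The phosphodiesterase gene Pde4b (7.44 ± 0.11) and the coactivator gene Ppargc1a (6.75 ± 0.38) were lowest. Several of these are also immediate early genes, which other signals induce too. In the RefSeq promoter table (GRCm38.p6), the 250 bases before the transcript start were searched on both strands. The core of the element, TGACG, was found in 12 of 16 windows of these genes (75%), against 17.8% of all 32851 windows. The genes were listed as known to respond to cyclic AMP, and windows were not matched for GC content. The higher share is therefore no independent result. The full element TGACGTCA, which contains the core, lay in 2 of the 16 windows, against 1.55% of all. These 2 are printed in stretches of 30 bases because they show the site that CREB binds, with the element in capitals.
Dusp1, chr17:26508597-26508626, minus strand: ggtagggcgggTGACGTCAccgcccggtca
Btg2, chr1:134079303-134079332, minus strand: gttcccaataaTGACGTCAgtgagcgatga
The element begins at base -143 from the start of Dusp1 and at base -166 from that of Btg2, an antiproliferative gene with a signal of 10.24 ± 0.07. A match describes the letters and is not evidence of binding.

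Nfatc2 and Nfatc3 encode NFAT1 and NFAT4, which enter the nucleus when calcineurin removes their phosphates, and NFAT1 is known to bind the Il10 locus together with IRF4. Nfatc2 had a signal of 6.50 on the replicate 2 array and 6.42 on the replicate 1 array, a mean of 6.46 ± 0.06 (SD, n = 2). The first lay 0.31 above its threshold, and the second missed its own by a margin of -0.33. The call of Nfatc2 thus differed between the arrays although its values were only 0.08 apart, since the thresholds differ by more. Nfatc3 reached 8.46 on replicate 2 and 7.61 on replicate 1, a mean of 8.03 ± 0.60 (SD, n = 2). It was above both thresholds, by 2.27 and 0.87, and had the largest SD of the 8 factors.

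Among NFAT relatives, calcineurin and calcium entry genes 9 of 12 passed (75%, against 38.9% of protein-coding genes outside the reference). Nfat5, the osmotic stress relative that does not depend on calcineurin, was highest at 9.89 ± 0.57, and Nfatc4 was below the threshold at 6.21 ± 0.26. The calcineurin genes Ppp3ca (9.09 ± 0.45), Ppp3cb (9.60 ± 0.24), Ppp3cc (8.63 ± 0.24) and Ppp3r1 (8.32 ± 0.11) all passed. So did the calcium sensor genes Stim1 (7.60 ± 0.30) and Stim2 (8.68 ± 0.03), the channel gene Orai1 (8.49 ± 0.06) and the receptor gene Itpr2 (7.56 ± 0.11). Orai2 was lowest at 4.61 ± 0.50, and Orai3 passed on replicate 2 alone. Of 10 measured genes of a list of NFAT kinases and calcineurin inhibitors, 5 passed. With so few genes, 50% lies near that 38.9%. Gsk3a, encoding a kinase that returns NFAT to the cytoplasm, was highest at 10.32 ± 0.13, and Rcan1, a calcineurin inhibitor gene that NFAT itself induces, followed at 10.06 ± 0.04. Homer2 (4.88 ± 0.16) and Akap5 (4.18 ± 0.39) were lowest.

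Hif1a encodes the oxygen-regulated subunit of HIF-1, which has been linked to Il10 in mouse B cells. Its signal was 12.14 on the replicate 2 array and 11.53 on the replicate 1 array, a mean of 11.83 ± 0.43 (SD, n = 2). The values lay 5.95 and 4.78 above the thresholds. A further feature that carries the Hif1a symbol together with that of another gene was not used, and it gave 5.44 and 5.29, below both thresholds. The signal of Hif1a thus rests on 1 of the 2 features that bear its symbol.

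Of 11 measured HIF relatives and oxygen-sensing genes, 7 passed (63.6%, against 38.9% of protein-coding genes outside the reference). Arnt, which encodes the constant partner subunit of HIF-1, stood at 9.71 ± 0.49 and the relative Epas1, encoding HIF-2 alpha, at 9.71 ± 0.09. The prolyl hydroxylase genes Egln1 (7.85 ± 0.02), Egln2 (8.38 ± 0.14) and Egln3 (9.17 ± 0.05), whose products mark HIF for breakdown, also passed. The elongin genes Eloc (11.59 ± 0.48) and Elob (10.06 ± 0.04), which serve the VHL ubiquitin ligase, were highest. Vhl itself (5.27 ± 0.11) and Siah2 (5.96 ± 0.07) were below the threshold, and Arnt2 (4.51 ± 0.11) and Hif3a (4.27 ± 0.06) were lowest. Of 20 measured HIF target genes 12 passed (60%, against the same 38.9%), with a median of 8.21. Ndrg1 (11.93 ± 0.38) and the vasodilator peptide gene Adm (10.66 ± 0.22) were highest, and Ddit4 (5.68 ± 0.19) and the kinase gene Pdk1 (5.59 ± 0.05) were lowest. Known targets of HIF thus lay on both sides of the threshold.

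The HIF core ACGTG was found in 15 of 25 windows of the measured HIF target genes (60%), against 16.6% of all windows. These genes too were listed as known targets and not matched for GC content, so the share is no independent result. The match nearest to the start is printed for the 2 genes of highest signal that hold one, Ldha, encoding lactate dehydrogenase A, and the glucose transporter gene Slc2a1, with the core in capitals. In Ldha it lies on the opposite strand and so reads as its reverse complement.
Ldha, chr7:46845758-46845787, plus strand: cgtgggttcccgCACGTccgctgggctccc
Slc2a1, chr4:119108697-119108726, plus strand: gtcccgccccggACGTGctccccaggcccc
The signals of these genes were 10.09 ± 0.26 for Ldha and 9.70 ± 0.03 for Slc2a1.

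**Figure D2:**
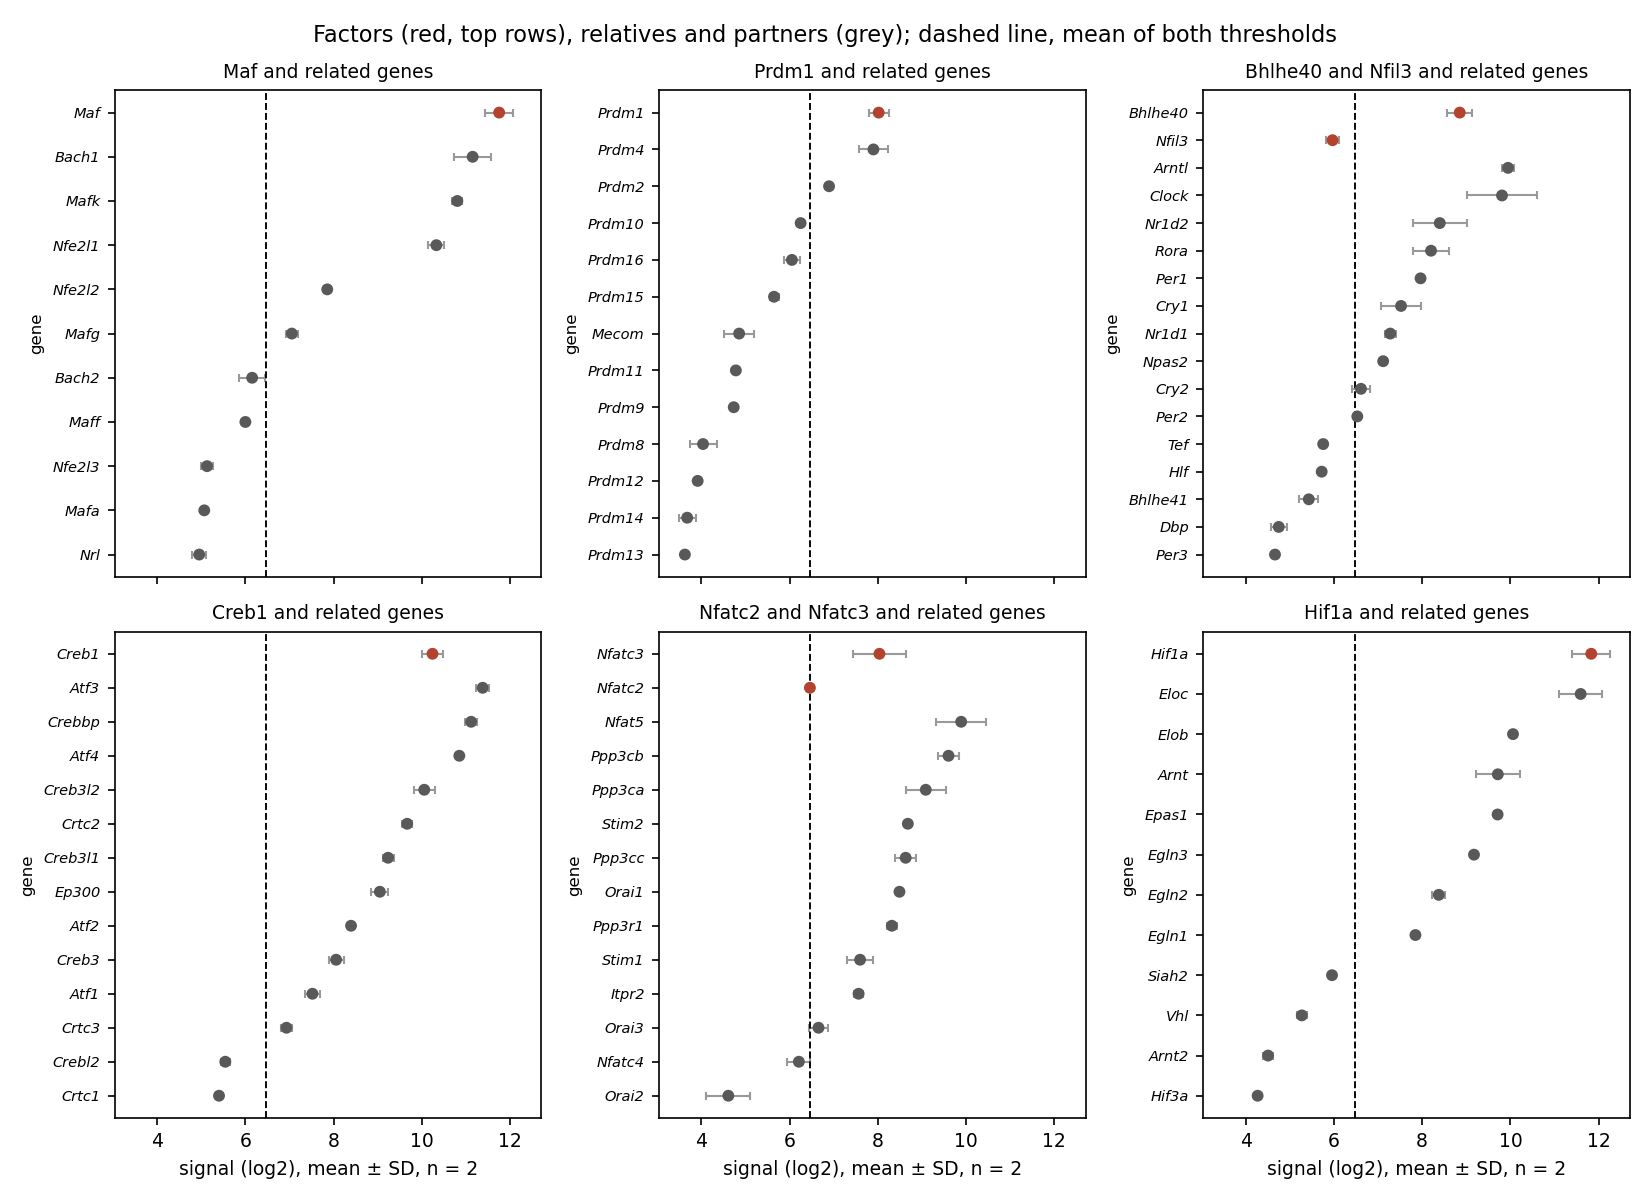
Log2 signal (horizontal axis, mean ± SD, n = 2) of each factor (red, top rows) and of its relatives, partners and regulators (grey) by gene (vertical axis), with the mean of both thresholds, 6.47, as a dashed line. Maf and Hif1a lie to the right of the line with relatives on both sides of it, and most PRDM genes lie to its left.

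The promoters of the factors themselves were searched for the core sites of the factors of the same set. The table held 8 windows of 6 factors, Prdm1, Nfil3, Creb1, Nfatc2, Nfatc3 and Hif1a, with 2 annotated starts each for Nfatc2 and Nfatc3. The E-box CACGTG, which Bhlhe40 protein binds and which contains the HIF core on both strands, was found in 2 of 8 windows, those of Hif1a and of the second start of Nfatc3, against 6.02% of all windows. The HIF core lay in the same 2 windows, against 16.6% of all. The TGACG core lay in 3 windows, of Prdm1, Nfil3 and the first start of Nfatc3, against 17.8%. The NFAT core GGAAA (5 of 8 windows, against 55.6% of all) and the Blimp-1 core GAAAG (5 of 8, against 51.5%) are so common that a match carries little. The full element TGACGTCA, the NFIL3 site TTACGTAA (0.113% of all windows) and the Maf core TGCTGA (16.1%) were in none of the 8 windows.

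The promoter of Hif1a is shown whole because it alone holds the E-box, another HIF core and the NFAT core. Capitals mark, in order, the NFAT core as its reverse complement, the E-box and the second HIF core. A Blimp-1 core on the opposite strand, which overlaps the NFAT core from base -237 to base -233, is not marked.
Hif1a, chr12:73907617-73907866, plus strand: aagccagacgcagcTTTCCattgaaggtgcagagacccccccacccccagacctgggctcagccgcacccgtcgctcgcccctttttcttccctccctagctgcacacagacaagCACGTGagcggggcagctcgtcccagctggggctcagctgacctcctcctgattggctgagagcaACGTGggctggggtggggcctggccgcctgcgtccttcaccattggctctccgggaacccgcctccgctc
Sites of 3 other factors are given in stretches of 30 bases, with the E-box of Nfatc3 and the reverse complement of TGACG in Prdm1 and Nfil3 in capitals.
Nfatc3, chr8:106059435-106059464, plus strand: gcgcttcttgctCACGTGacttcctcctcg
Prdm1, chr10:44458769-44458798, minus strand: agtgaatcagacCGTCAgtattggtaaaga
Nfil3, chr13:52981081-52981110, minus strand: gcggccgccgccCGTCAcggcggggctggc
The E-box begins at base -143 of Nfatc3 and at base -135 of Hif1a, and the TGACG match at base -38 of Prdm1 and at base -59 of Nfil3. The TGACG match at the first start of Nfatc3 begins at base -49 and is not printed. Of the factors with these matches, Nfil3 was below the threshold and the others above it. With only 6 factors searched, the matches cannot show whether the letters go with the call.

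**Figure D3:**
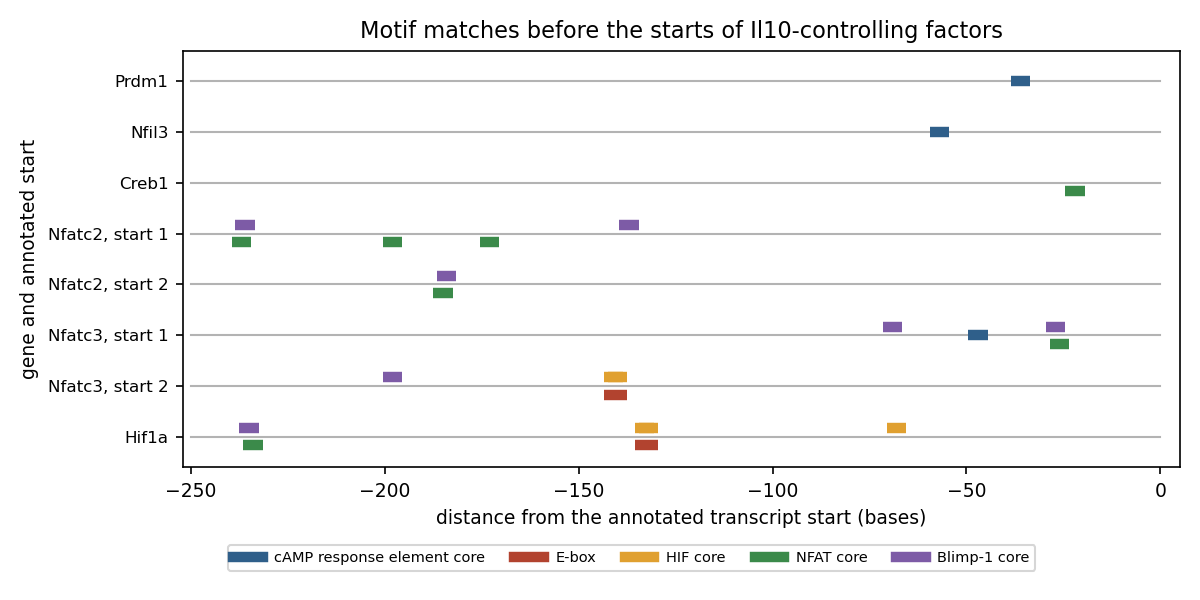
Matches of core sites (coloured blocks) in the 250 bases before each annotated start of 6 factors (vertical axis), placed by distance from the start in bases (horizontal axis). The E-box with its overlapping HIF core appears in Hif1a and at the second start of Nfatc3, and NFAT and Blimp-1 cores are spread over several windows.

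Il10 itself gave 11.05 on the replicate 2 array and 10.59 on the replicate 1 array, a mean of 10.82 ± 0.32 (SD, n = 2), and its receptor genes Il10rb (9.40 ± 0.36) and Il10ra (7.60 ± 0.11) passed too. Beyond the 8 factors, 24 other transcription factor genes linked to Il10 were measured, and 20 of them passed, with a median signal of 8.69. Rel, encoding the NF-kB subunit c-Rel, and the AP-1 gene Jun were highest at 14.45 ± 0.33 and 13.54 ± 0.61. Tbx21 was not above the threshold at 6.15 ± 0.08, nor Cebpb at 5.72 ± 0.12. Irf4, whose protein works with NFAT1 at Il10, stood at 8.55 ± 0.35. The share of these genes above the threshold, 83.3%, and that of the 8 factors, 75%, are shares of lists of well-studied regulators, and the difference between such lists and other genes was not tested.

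**Figure D4:**
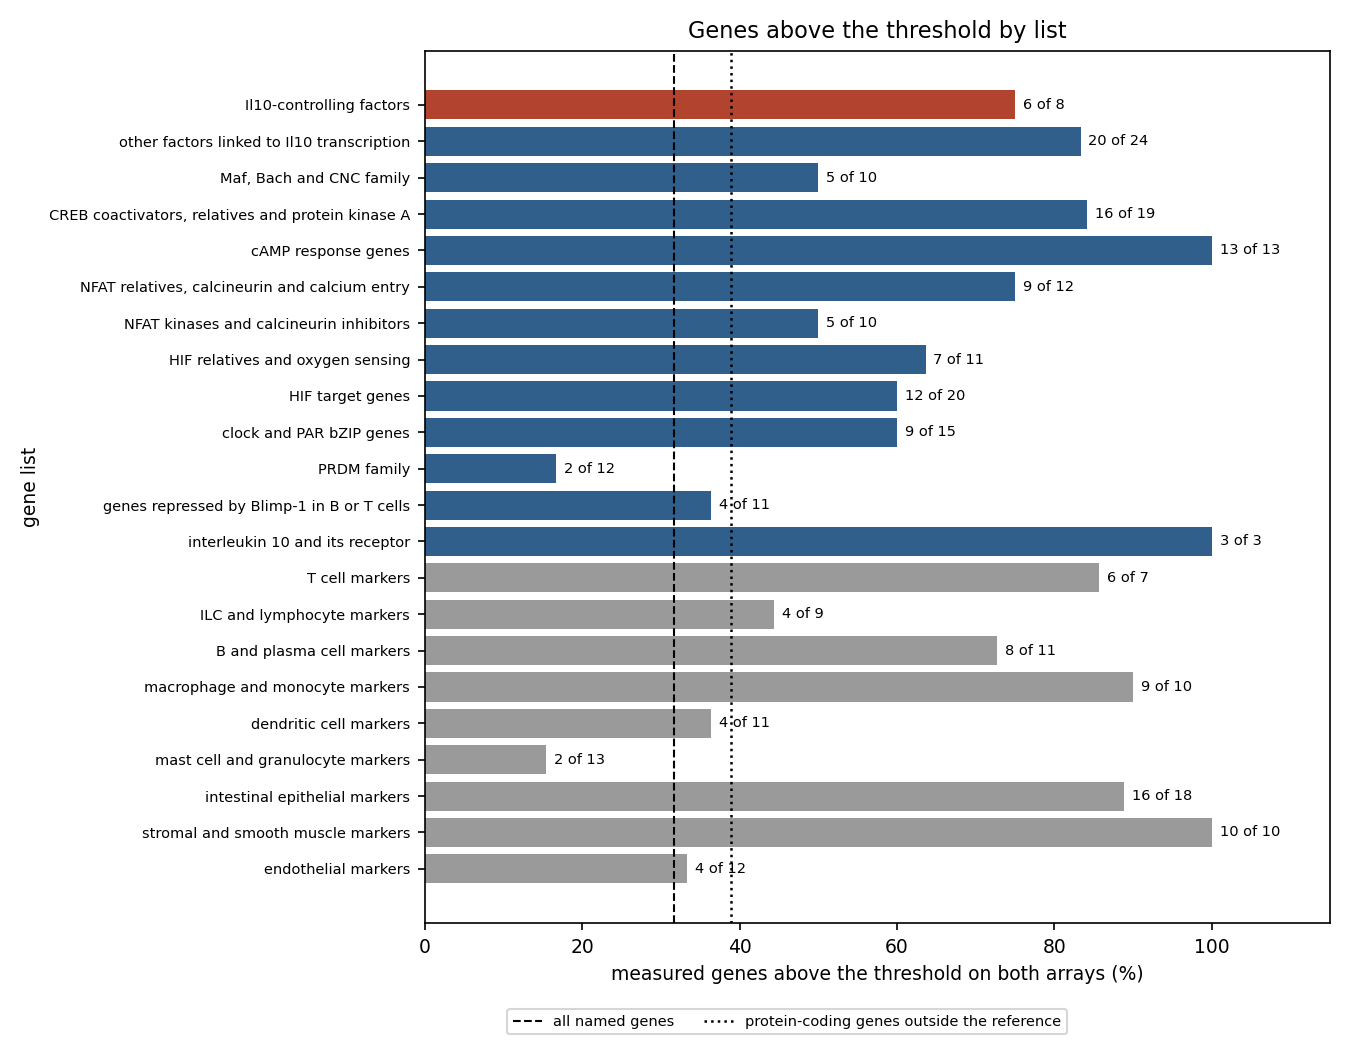
Share of measured genes above the threshold on both arrays (horizontal axis, percent) for the 8 factors (red), related gene lists (blue) and cell type markers (grey), with the count beside each bar and the shares of all named genes (31.7%) and protein-coding genes (38.9%) as vertical lines. The 6 of 8 factors sit beside 20 of 24 other factors, and markers of macrophages, epithelium and stroma reach shares at least as high.

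Differences between the arrays, taken as replicate 2 minus replicate 1 and centred on the median of all named genes (-0.05), stayed within 2-fold for all 8 factors. This compares with 3.45% of all named genes, and 4.16% of genes above the threshold, that were over 2-fold apart. The centred differences were 0.89 for Nfatc3, 0.66 for Hif1a, 0.49 for Maf, 0.44 for Bhlhe40, 0.37 for Prdm1, 0.27 for Nfil3, 0.13 for Nfatc2 and -0.28 for Creb1. Of the 8 factors 7 were higher on the replicate 2 array, as were 5 of the 6 above the threshold, and Creb1 was higher on the replicate 1 array. Replicate 2 was the higher array for 50% of all named genes, by construction. It was so for 55.3% of genes above the threshold, and for 63.7% of those that are protein-coding, so a lean that way is common on these arrays.

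The median centred difference of the 8 factors was 0.41, against 0.05 for all genes above the threshold and 0.13 for the protein-coding ones among them. Nfatc3 differed more than 93.9% of genes above the threshold and Hif1a more than 85.6%, and Nfatc2 more than only 26.6%. Il10 had a centred difference of 0.51, inside the range of the factors. The median of the centred differences was 0.17 for stromal and smooth muscle markers, of which 9 of 10 were higher on replicate 2 and 3, all collagen genes, were over 2-fold apart. For macrophage markers the median was 0.18, with 6 of 10 higher on replicate 2 and 4 on replicate 1, and for epithelial markers it was -0.10, with 7 of 18 higher on replicate 2. Single markers in these lists ranged from -1.09 for Fabp1 to 2.08 for Col3a1. Macrophage markers alone ranged from -0.88 for Fcgr1 to 0.86 for Adgre1. The part of these cells in the differences was not tested. Each difference rests on 1 array against 1.

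**Figure D5:**
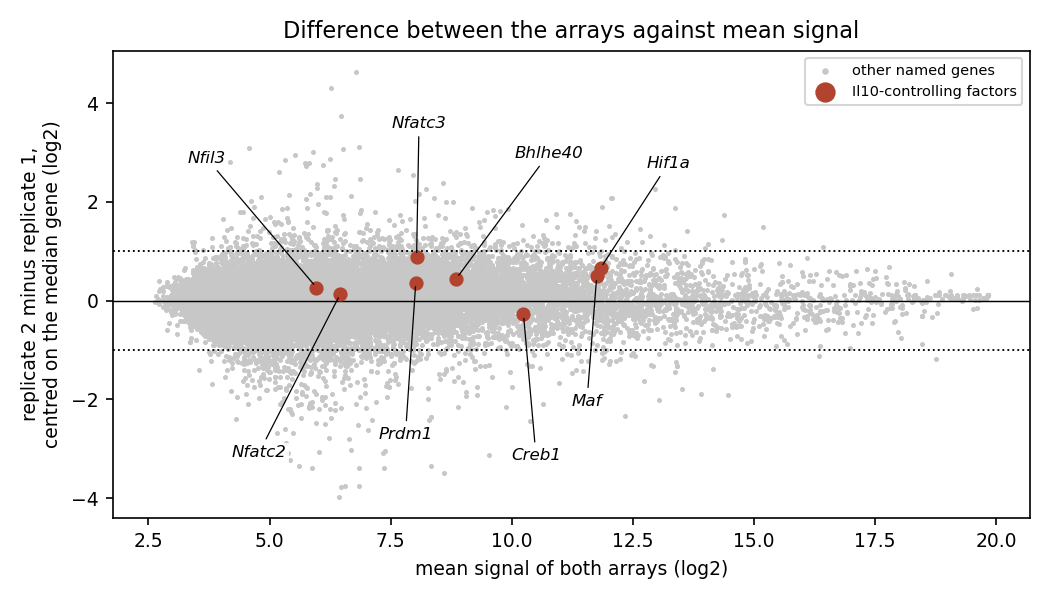
Centred difference between the arrays (vertical axis, log2, replicate 2 minus replicate 1) against mean signal (horizontal axis, log2) for all named genes (grey) and the 8 factors (red), with dotted lines at 2-fold. All 8 factors lie between the dotted lines, and only Creb1 lies below 0.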

How the data were processed

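The authors deposited 1 table with a value for each of 61344 features (transcript clusters) on 2 arrays, read here as log2 signal because they run between 2.10 and 19.86. The log base is not stated. The tool MAS5 is named, without version or role, per the submitters' processing notes. How background was corrected and values were scaled, and which genome build was used, is not given in the sources used here. Of the features, 28573 carried 1 gene symbol, 2014 several and 30757 none. Symbols were updated through Entrez identifiers of the GRCm38.p6 gene table (21205 of 21456 matched), and of several features of a gene the one with the highest mean was used (Python 3.11.15, pandas 2.3.3). The threshold, the centring and the promoter search are described with their results. With 1 group of 2 arrays no test was possible, and the number of arrays limits the precision. The calculations were checked on simulated data. All 8 measured factors are named, with the 2 highest and the 2 lowest genes of most lists, the relatives of a factor, and further genes chosen after their values were seen. The factors and lists were chosen with earlier results of these data known. Promoter sequences are from RefSeq (GRCm38.p6).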

Additional observations from a re-analysis of the deposited data

Results flagged for a closer look

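Of 2014 features that carry several gene symbols and were left out of every count, 727 (36.1%) exceeded the threshold on both arrays. They drew attention as signal in data left unused, and no gene is named for them.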

How the results depend on the processing

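Of 196 values recomputed under other settings, 187 kept to their reported value within 1.5 times (counts) or within the replicate spread (medians), and 9 did not. The count of factors above the threshold, 6 of 8, was 7 at the 90th percentile of the reference, where Nfatc2 passed, and 4 at the 99th, where Prdm1 and Nfatc3 passed on replicate 2 alone. It was 6 to 7 without replicate 1 or replicate 2, and 6 with keratin-associated protein, Rhox and beta defensin genes as reference. The median signal was 8.26 to 8.75 without either array, and 9.55 over the factors above the threshold only. At the 99th percentile the counts fell to 3 for the Maf, Bach and CNC family, 5 for clock genes, 0 for PRDM genes, 4 for B and plasma cell, 1 for mast cell and granulocyte and 1 for endothelial markers. PRDM genes numbered 4 at the 90th percentile and 1 with the other reference. The stricter percentile lowers counts by construction. The median centred difference ranged from 0.29 (quantile normalization) to 0.47 (factors above the threshold only), and 7 of 8 factors, or 5 of the 6 above the threshold, were higher on replicate 2 under each centring. Quantile normalization keeps ranks within an array, so its identical counts above the threshold say nothing, although they are among the 187. The median over features alters the signal of only the 215 genes with several features. No paired analysis was possible because the series has 1 group.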
